A study of Mus musculus with 58 samples.

Results

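A set of 10 genes of the Hsp90 chaperone machinery and of the chaperonins was described across lung, liver and forestomach of mice given benz(a)anthracene (BaA) by mouth. The genes were the cytosolic Hsp90 isoforms Hsp90aa1 and Hsp90ab1, the co-chaperones Stip1, Ahsa1, Chordc1 and Cacybp, the mitochondrial chaperonin Hspd1 (Hsp60) with its lid Hspe1 (Hsp10), the small heat shock protein Hspb1 (Hsp27) and the transcription factor Hsf1. They are 10 of the 20018 gene symbols that the probes of the array could be matched to. They were taken by name with earlier results of these arrays known, so their changes with dose, and the calls and counts made from a fit across all probes, are given as a description, and no p-value is printed for a single member.

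The animals were male Muta™Mouse, a transgenic line that carries a bacterial lacZ reporter in every cell, about 10 weeks old. Mice were gavaged daily for 28 days with olive oil alone (D0) or with BaA in olive oil at 20 (D1), 40 (D2) or 80 mg/kg-bw/day (D3), and tissues were taken 72 h after the last dose. BaA is a polycyclic aromatic hydrocarbon of combustion products. RNA of whole tissue was labelled with Cy5 and hybridised with Cy3-labelled universal mouse reference RNA, which is prepared from mouse cell lines, on 58 Agilent arrays. Lung had 5 arrays in each dose group, liver had 5, 5, 5 and 4, and forestomach had 4, 5, 5 and 5. The same numbered mice gave all 3 tissues. Liver of mouse 20 and forestomach of mouse 5 were not analysed here. In such whole-tissue samples, fewer cells of a type and less RNA per cell cannot be told apart, and a time point 72 h after the last of many doses does not show the first response.

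Hsp90 is an abundant cytosolic chaperone that works as a dimer and binds, in an ATP-driven cycle, client proteins such as kinases and nuclear receptors. The aryl hydrocarbon receptor, which binds polycyclic aromatic hydrocarbons, is held ready by Hsp90 in the cytosol. Stip1 (Hop) bridges Hsp70 and Hsp90, Ahsa1 speeds up the ATPase of Hsp90, Chordc1 (morgana) is an Hsp90 partner that binds through zinc-coordinating domains, and Cacybp binds Siah ubiquitin ligases and S100 proteins. Hspd1 and Hspe1 form a folding chamber in the mitochondrial matrix. Hsf1 is held inactive by chaperones and, once released, drives many chaperone genes through the heat shock element, a run of GAA units and their reverse complement TTC.

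The unit throughout is log2(Cy5/Cy3) after within-array loess, so that a value of 0 is the level of the reference RNA and a difference of 1 is a doubling. Levels of different genes cannot be set against each other on this scale, because each gene is measured against its own level in the reference. The 10 genes had 12 probes, 3 of them for Hspe1, and the probe with the brightest mean Cy5 signal stands for Hspe1 unless another is named. All 12 probes were well above background on all 58 arrays and none was saturated. Of their 696 values, 3 were left out because the scanner software had marked the spots as outliers. The probe sequences were not used here, so signal shared with near-identical copies of Hsp90aa1, Hsp90ab1, Hspd1 or Hspe1 cannot be told apart.

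The share of spots well above background ran from 44.4 to 55.2% in lung, from 34.1 to 45.7% in liver and from 38.4 to 69.2% in forestomach. The defining markers fitted the labelled tissues, with lung, liver and squamous epithelium marker lists high in lung (7.02 to 7.44), liver (6.85 to 7.50) and forestomach (3.13 to 4.15), respectively. Some arrays also carried markers of other tissues. The lung of mouse 5 (D0) was at 3.26 in squamous epithelium and 4.81 in skeletal muscle markers, the lung of mouse 16 (D3) at 1.26 and 1.41, and the lung of mouse 14 (D2) at 5.10 in fat markers. Heart muscle markers ran from 0.49 to 4.38 in lung. In forestomach, the mean of 9 glandular stomach markers ran from 0.75 to 5.71.

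RefSeq promoter windows (GRCm38.p6, 250 bases before to 50 after a start) were at hand for 7 of the 10 genes in 8 windows. They are shown first because the genes differ in whether the letters of a heat shock element stand near their start. An element was counted where 3 units of GAA and TTC alternated with 2 bases between them (GAANNTTCNNGAA or TTCNNGAANNTTC, which covers both strands). It stood in 198 of 32851 windows (0.603%), and in windows of 3 of the 7 genes, Chordc1, Hspe1 and Hspd1. Capitals mark the longest run of such units in the first 2 sequences and each pair of units in the third. The Chordc1 window lies at chr9:18292017-18292316 on the plus strand, the Hspe1 window at chr1:55087898-55088197 on the plus strand, the Hspb1 window at chr5:135887669-135887968 on the plus strand and the Cacybp window at chr1:160212843-160213142 on the minus strand.
Chordc1: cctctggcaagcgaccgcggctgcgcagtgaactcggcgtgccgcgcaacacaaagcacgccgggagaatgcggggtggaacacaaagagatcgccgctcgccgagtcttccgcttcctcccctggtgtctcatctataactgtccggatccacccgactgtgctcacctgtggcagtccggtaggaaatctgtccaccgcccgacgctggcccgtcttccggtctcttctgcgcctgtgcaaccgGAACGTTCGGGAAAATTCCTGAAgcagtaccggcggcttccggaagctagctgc
Hspe1: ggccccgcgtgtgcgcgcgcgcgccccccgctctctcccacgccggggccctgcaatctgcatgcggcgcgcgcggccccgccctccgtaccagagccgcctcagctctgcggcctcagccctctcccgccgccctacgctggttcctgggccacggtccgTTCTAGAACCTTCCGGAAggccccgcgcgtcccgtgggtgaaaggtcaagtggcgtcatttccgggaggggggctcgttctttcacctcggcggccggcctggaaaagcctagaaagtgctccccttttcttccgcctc
Hspb1: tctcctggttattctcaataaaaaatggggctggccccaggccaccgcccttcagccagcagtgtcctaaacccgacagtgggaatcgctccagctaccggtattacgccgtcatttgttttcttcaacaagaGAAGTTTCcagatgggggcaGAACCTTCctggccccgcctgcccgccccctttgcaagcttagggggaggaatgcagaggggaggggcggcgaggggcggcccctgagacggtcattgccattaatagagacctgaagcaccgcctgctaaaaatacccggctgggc
Cacybp: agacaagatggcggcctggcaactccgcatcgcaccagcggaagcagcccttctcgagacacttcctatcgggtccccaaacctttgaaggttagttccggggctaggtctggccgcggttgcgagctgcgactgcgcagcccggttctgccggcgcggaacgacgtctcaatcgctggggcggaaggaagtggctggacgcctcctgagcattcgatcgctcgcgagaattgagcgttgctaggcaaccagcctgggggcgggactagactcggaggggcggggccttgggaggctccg

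The Chordc1 window held a run of 5 units over 23 bases that begins 4 bases before the start and ends 19 bases after it. The Hspe1 window held a run of 4 units over 18 bases, from 89 to 72 bases before the start. Hspd1 lies head to head with Hspe1. One of its 2 windows (chr1:55087883-55088182, minus strand) shares 285 bases with that of Hspe1 and holds the same run, which makes the 3 genes with an element 2 stretches of DNA. The Hspb1 window had only pairs of units, which 15.1% of all windows have as well. The windows of Cacybp, Ahsa1 and Stip1 held no pair. That of Stip1 held 4 matches to CCAAT, a motif with a match on either strand in 37.4% of windows. Only exact matches were counted, so units with a differing base were not looked for. The letters are a description of sequence and were not tested for binding.

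In lung, the co-chaperones Chordc1 and Cacybp had lower transcript levels in BaA-treated mice than in vehicle controls. The mean of Hspd1 was lower at all 3 doses as well, but it passed the thresholds given next only at the highest dose, and narrowly. A change was called where limma's p, adjusted by Benjamini-Hochberg over all 30383 probes tested in lung, was at most 0.05 and the change was at least 1.5-fold, the thresholds of the study. At D2 and D3, 3 and 5 genes had an unadjusted p under 0.05, beside 16 and 23.9% of probes. None of the 10 genes was called at D1 (6 had an unadjusted p under 0.05, beside 7.46% of probes), 2 at D2 (Cacybp and Chordc1) and 3 at D3 (Cacybp, Chordc1 and Hspd1), all lower, beside 0, 0.556 and 1.88% of all probes called in either direction. Probes called lower made up 0.0724% at D2 and 0.566% at D3. Nothing is read from these counts, since the genes were chosen with them known. The 3 dose contrasts share their vehicle arrays.

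Chordc1 had log2 ratios of 1.34, 0.87, 0.96, 0.90 and 0.58 in the 5 control lungs. They were 0.48, 0.50, 0.13, 0.32 and 0.02 at D1, and 0.26, 0.14, 0.04, 0.27 and -0.06 at D2. At D3 they were -0.04, 0.23, -0.0019, -0.06 and -0.21. Every treated lung lay below every control lung, at all 3 doses. The changes from D0 were -0.64, -0.80 and -0.95, each with an SE of 0.12, and the last is a 1.93-fold lower level. Chordc1 was the sole member whose D1 arrays all lay below the D0 arrays, as 0.461% of probes did.

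Cacybp had log2 ratios of 0.59, 0.11, 0.59, -0.06 and -0.08 in control lungs, so that mice 1 and 3 stood above the other 3. They were 0.12, -0.15, -0.54, 0.02 and -0.67 at D1, where the groups overlapped. At D2 they were -0.51, -0.22, -0.68, -0.42 and -0.89, and at D3 -0.75, -0.41, -0.77, -0.90 and -0.99. All lungs of D2 and D3 lay below the lowest control. The changes were -0.47, -0.77 and -0.99 (SE 0.17, n = 5 per group), the last a 1.99-fold lower level. Of all probes, 1.2% at D2 and 2.63% at D3 had no overlap in this direction, as Chordc1 and Cacybp did.

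Hspd1 had log2 ratios of -0.55, -0.71, -0.25, -0.14 and -0.32 in control lungs and -0.94, -0.63, -0.82, -1.36 and -1.16 at D3. The groups overlapped, since mouse 17 of D3 stood above mouse 2 of D0. At D1 the values ran from -1.21 to -0.59 and at D2 from -1.17 to -0.36. The changes were -0.46, -0.35 and -0.59 with an SE of 0.16, and the fold at D3 lay at the edge of the 1.5-fold threshold. The call at D3 was lost without any one of mice 3, 4, 5, 19 or 20, in the authors' own table of normalised ratios and with the Cy5 channel alone.

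**Figure D1:**
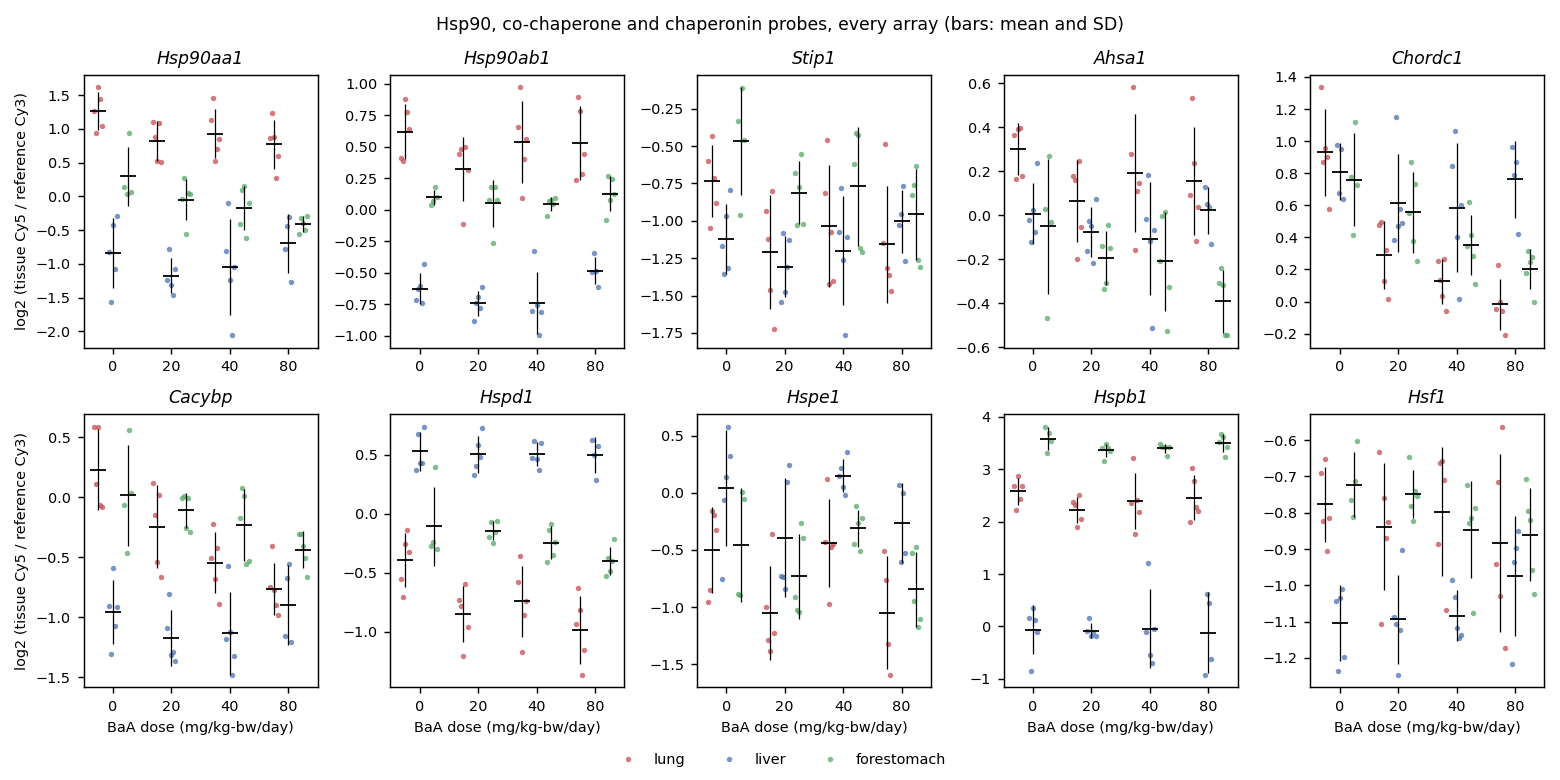
Log2(Cy5/Cy3) of each gene on each array (y axis) by dose in mg/kg-bw/day (x axis) in the 3 tissues, where points are arrays and bars are group means with SD. Chordc1 in lung goes from 0.93 at D0 to -0.02 at D3 and Cacybp from 0.23 to -0.76, while their liver means at D3 (0.76 and -0.90) are close to those at D0 (0.81 and -0.96).

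The slope on dose in lung, fitted over all 20 arrays, was called (adjusted p of at most 0.05) for 2 of the 10 genes, beside 11.6% of all probes (3 had an unadjusted p under 0.05, beside 25.9%). It was -0.95 ± 0.17 (SE) per 80 mg/kg-bw/day for Cacybp and -0.84 ± 0.15 for Chordc1. The 3 slides of the lung arrays held 2, 1 and 2 arrays of D0 and as many of D3. Within them, Chordc1 at D3 was lower than at D0 by log2 differences of -1.01, -1.01 and -0.85, and Cacybp by -0.93, -1.49 and -0.81. The middle difference is thus a single pair of mice. The slide differences for Hspd1 were -0.16, -1.11 and -0.76. In the Cy3 channel, which holds the same reference RNA on every array, no member was called by its brightest probe in any dose contrast. The D3 changes of these probes in lung ran from -0.07 to 0.09. A further Hspe1 probe, the third below, was less steady in Cy3. It changed by 0.55 ± 0.63 in lung and -0.53 ± 0.91 in liver at D2, neither called. Without mice 5, 14 and 16, whose lungs carried the squamous, muscle or fat markers, 0, 2 and 2 genes were called at D1, D2 and D3 and 2 slopes. Hspd1, at -0.58, was then the one no longer called. The share of all probes called without these mice was not counted.

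The other 7 members were not called in lung at any dose. Hsp90aa1, the stress-inducible Hsp90, had log2 ratios of 1.27, 0.94, 1.62, 1.44 and 1.05 in control lungs and 0.86, 1.24, 0.89, 0.27 and 0.60 at D3. These groups overlapped through mouse 17 and the change of -0.49 ± 0.19 was not called. Hsp90ab1, the constitutive isoform, changed by -0.09 ± 0.16 at D3. Stip1 changed by -0.42 ± 0.21 and Ahsa1 by -0.14 ± 0.13. Hspe1 changed by -0.55 ± 0.25 at D3 but by 0.06 ± 0.24 at D2. Hspb1 changed by -0.12 ± 0.22, and Hsf1, whose lung values all lay between -1.17 and -0.56, by -0.11 ± 0.11. The changes at D1, the lowest dose, ran from -0.64 (Chordc1) to -0.06 (Hsf1), with Hspe1 at -0.55, Cacybp and Stip1 at -0.47 and Hspd1 at -0.46. At that dose all 5 smooth muscle markers were below the control mean as well, with a median change of -0.47 and list means of 1.40 to 1.74 against 1.70 to 2.27 in control lungs, and none of them was called. The list medians at D2 and D3 were 0.12 and 0.12. Of 5 blood cell markers, the B cell gene Cd79a was called higher at D2 (0.63, limma adjusted p = 0.0365), and their median changes at the 3 doses were 0.24, 0.42 and 0.27. The part of these markers in the lung changes was not tested.

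The 10 genes were below the vehicle group in 10, 9 and 10 cases at D1, D2 and D3 in lung, beside 49.7, 49.4 and 49.4% of all probes. When arrays were centred on their median in place of loess, 6, 2 and 6 genes were. Most of the 10 were correlated over the lung arrays, so the cases are not independent. With loess, the median changes of the 10 genes were -0.45, -0.24 and -0.46. Median centring moved the median of all lung probes itself by 0.18, 0.38 and 0.15, and relative to it 9, 5 and 8 of the 10 genes were lower. With this scaling 0 of the 30383 probes, and so no member, was called in lung at any dose, although Chordc1 and Cacybp kept their direction, at -0.19 and -0.11 at D2 and at -0.61 and -0.63 at D3. Beside median centring, the signs that turned between scalings in lung were those of Hsp90ab1 at D2 and D3 in the authors' table and of Hspb1 at D3 in the Cy5 channel alone.

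**Figure D2:**
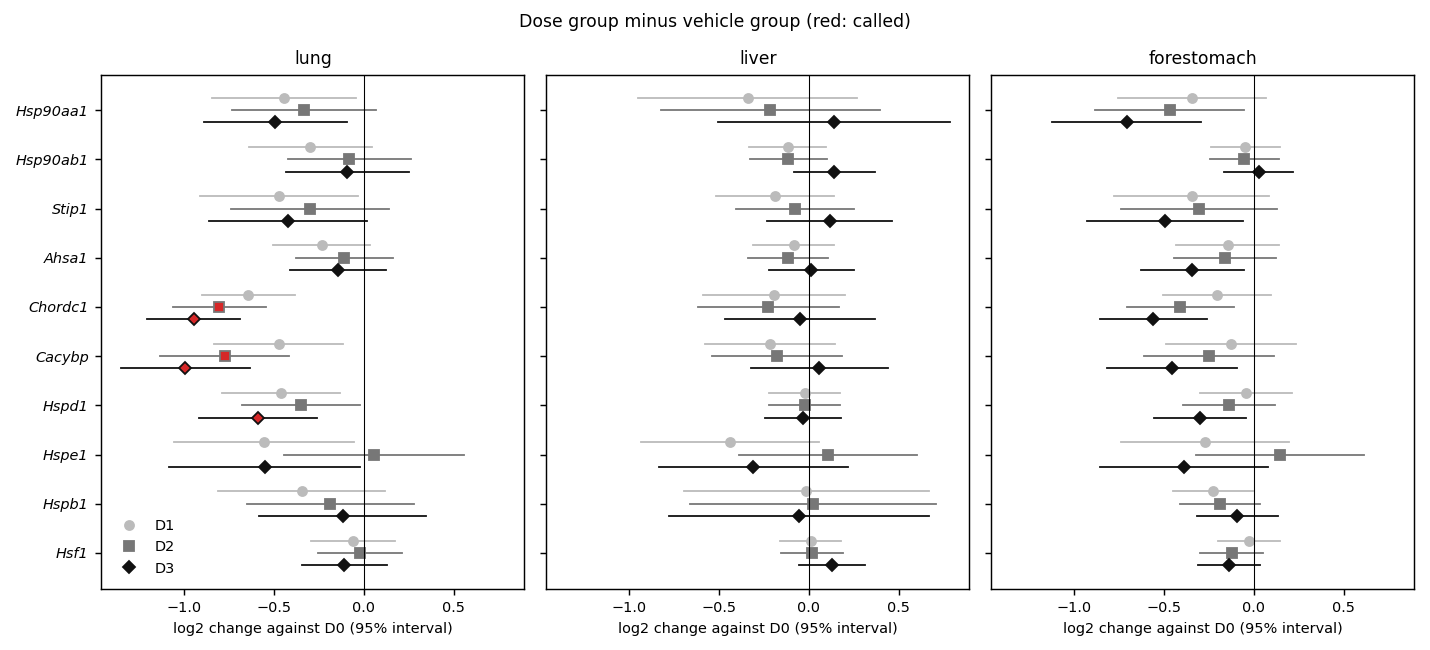
Change of each gene from vehicle (log2, x axis) at D1, D2 and D3 in lung, liver and forestomach, where bars are 95% confidence intervals and red points mark called changes. The called points are Cacybp and Chordc1 at D2 and D3 and Hspd1 at D3, all in lung, and the liver points lie between -0.44 and 0.14.

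In forestomach, Hsp90aa1 and Chordc1 had the largest decreases from D0 at the highest dose. However, none of the 10 genes was called at any dose, beside 0, 0.0124 and 0.0248% of the 32318 probes tested. Without adjustment, 1, 2 and 6 genes had a limma p under 0.05 at D1, D2 and D3, beside 4.42, 3.29 and 5.11% of all probes. Hsp90aa1 had log2 ratios of 0.14, 0.03, 0.94 and 0.07 in the 4 control forestomachs, of which mouse 3 stood far above the others. It ran from -0.56 to 0.27 at D1 and from -0.62 to 0.16 at D2. At D3 the values were -0.55, -0.32, -0.40, -0.50 and -0.29, all below every control, and the change was -0.71 ± 0.20.

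Chordc1 had log2 ratios of 0.78, 0.42, 1.12 and 0.73 in control forestomachs and 0.18, 0.32, 0.24, 0.28 and -0.0022 at D3, again with no overlap. The changes at D1, D2 and D3 were -0.20, -0.41 and -0.56 with an SE of 0.14. No overlap below D0 at D3 was seen in 2 of the 10 genes and in 1.07% of all forestomach probes. Cacybp (-0.45 ± 0.17), Stip1 (-0.49 ± 0.21), Ahsa1 (-0.34 ± 0.14) and Hspd1 (-0.30 ± 0.12) were the other 4 with an unadjusted p under 0.05 at D3. Without the high control forestomach of mouse 3, the D3 changes were -0.13 for Hspd1, -0.27 for Cacybp, -0.23 for Ahsa1, -0.37 for Stip1, -0.49 for Hsp90aa1 and -0.44 for Chordc1. Hsp90ab1 (0.03 ± 0.09) and Hspb1 (-0.09 ± 0.11) stayed near the controls. The slope on dose was called for none of the 10 genes (6 had an unadjusted p under 0.05, beside 5.24% of probes).

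The forestomach arrays differed in how much glandular stomach and fat they carried. The glandular list was at 0.90, 5.17, 1.03 and 0.75 in D0 and at 1.81, 2.91, 1.14, 5.09 and 5.39 in D3, so 1 of 4 controls and 2 of 5 treated samples were above 5. At D1 all 5 samples lay between 4.53 and 5.55. Fat markers ran from 1.32 to 4.55 in D0 and from 0.97 to 2.66 in D3. With the glandular mean as a covariate, the D3 changes were -0.65 for Hsp90aa1 and -0.49 for Chordc1 and again none was called. The part of the fat markers in these values was not tested.

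In liver, no member stood apart from the controls. None was called at any dose, beside 0.241, 0.588 and 0.434% of the 22789 probes tested, and none had an unadjusted p under 0.05, beside 7.52, 12.8 and 15% of probes. Of the 10 genes, 9, 7 and 4 were below D0 at the 3 doses, beside 50.4, 53.1 and 51.1% of all probes. After median centring 5, 10 and 6 were, but that scaling moved the median of all liver probes itself to 0.06, -0.17 and -0.06. Relative to it, 5, 9 and 4 of the 10 genes were lower. Chordc1 was at 0.98, 0.68, 0.95 and 0.64 in the 4 measured control livers and at 0.97, 0.79, 0.87 and 0.42 in the 4 livers of D3. Cacybp was at -0.91, -1.31, -0.59, -1.08 and -0.91 in control livers and at -1.16, -0.67, -0.56 and -1.21 at D3. Both pairs of groups overlapped, and the D3 changes were -0.05 ± 0.20 and 0.06 ± 0.18. The 95% confidence interval for Chordc1 at D3 reached from -0.46 to 0.37 and that for Cacybp from -0.32 to 0.44.

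Spread between livers of one group was wide for Hsp90aa1, which ran from -2.06 to -0.10 at D2, and for Hspb1, which ran from -0.70 to 1.21 there. Hspd1 was tighter, between 0.28 and 0.74 over all 19 livers. The slope on dose was called for no member in liver, beside 0.676% of probes (0 had an unadjusted p under 0.05, beside 15%).

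The D3 effect differed between lung and liver for 2 of the 10 genes, Cacybp by -1.05 ± 0.26 and Chordc1 by -0.90 ± 0.23, lower in lung, in a joint fit of all 58 arrays where 2.07% of 21868 probes were called. The same lung values chose the genes, so this too is a description. It fell to 1 gene without mouse 4 or mouse 16, to 0 without mouse 18 and to 0 with median centring. Between lung and forestomach no member was called (beside 0.257% of probes). The difference for Cacybp was -0.54, with a 95% interval from -1.05 to -0.02, and that for Chordc1 was -0.39, with an interval from -0.83 to 0.05. Between liver and forestomach none was called either (beside 0.0453%), and Hsp90aa1 differed by 0.85 ± 0.36. Without adjustment 1 and 3 members, respectively, had a p under 0.05, beside 8.39 and 6.93% of probes.

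Levels in vehicle-treated mice differed between tissues for most members, as they did for many probes. Of the 10 genes, 5 were called between lung and liver, 2 between lung and forestomach and 6 between liver and forestomach, beside 50.6, 31.8 and 44.9% of probes. Hspb1, which is abundant in muscle and squamous epithelium, was at 3.81, 3.30, 3.68 and 3.54 in forestomach, at 2.67, 2.21, 2.87, 2.44 and 2.67 in lung and at 0.15, -0.84, 0.36, 0.12 and -0.11 in liver. The 3 tissues did not overlap, and the liver was below the forestomach by a log2 difference of -3.65 ± 0.26. Smooth muscle markers, over all arrays, had the same order of tissues, at 4.46 to 5.66, 1.40 to 2.27 and -1.71 to -1.36, and their part in the Hspb1 level was not tested.

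Hsp90aa1 was highest in lung (mean 1.26), then forestomach (0.30), then liver (-0.84), where the control values were -0.83, -1.57, -0.42, -1.08 and -0.29. All 3 steps were called, with lung above liver by 2.10 ± 0.24 and above forestomach by 0.97 ± 0.25. Hsp90ab1 was higher in lung than in liver by 1.25 ± 0.13, while its difference between lung and forestomach (0.52 ± 0.13) was under the fold threshold. Cacybp in liver was below lung and forestomach, and the difference between the latter (0.21 ± 0.19) was not called. Hspd1 had the opposite order, with liver above lung (-0.92 ± 0.13 for lung minus liver) and above forestomach (0.63 ± 0.14). Stip1 was lower in liver than in forestomach (-0.66 ± 0.21). Chordc1, Ahsa1 and Hsf1 were not called between any 2 tissues. With median centring the count between lung and liver was 3, and with the Cy5 channel alone that between liver and forestomach was 3.

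**Figure D3:**
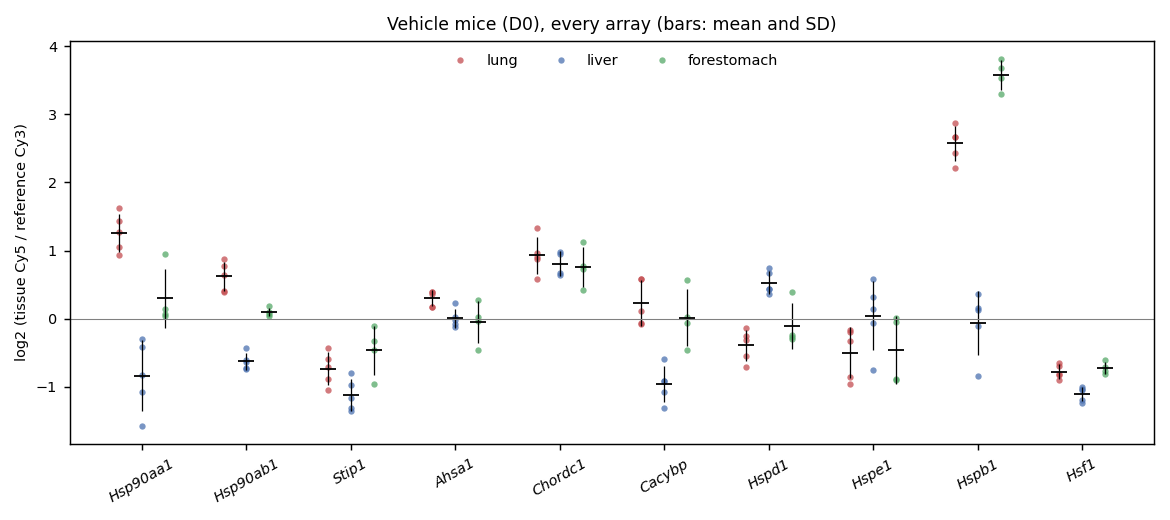
Log2(Cy5/Cy3) of each gene (y axis) in vehicle-treated lung (n = 5), liver (n = 5) and forestomach (n = 4), where points are arrays and bars are means with SD. Hsp90aa1 goes from 1.26 in lung to -0.84 in liver, Hspd1 is highest in liver, and heights of different genes cannot be compared.

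The 3 probes of Hspe1 gave different pictures. In liver, the brightest probe lay between -0.84 and -0.52 in mice 1, 6, 7, 8, 17 and 19 and between -0.06 and 0.58 in the other 13. The second probe split the same mice, from -1.03 to -0.80 against -0.11 to 0.64. The third probe lay between 0.07 and 0.90 in all 19 livers, but its Cy3 reference signal moved with the slide. In log2 it was 10.77 to 10.94 on liver slide 3 and 7.41 to 8.08 on the other liver slides. On lung slide 3 it was 8.74 to 9.04, against 10.02 to 11.25 on the other lung slides. The Cy3 signals of the first 2 probes stayed between 13.48 and 14.52. What this meant for the ratios of the third probe was not tested. The 6 low livers fell unevenly over the groups, 1 in D0, 3 in D1, none in D2 and 2 in D3, so the D1 change was -0.44 and -0.56 by the first 2 probes and -0.21 by the third, none of them called. The lung samples at D3 changed by -0.55, -0.59 and -0.24 by the 3 probes. Between lung and liver of vehicle-treated mice the third probe was called (-1.42 ± 0.19) and the first 2 were not (-0.54 and -0.61). Mice 1, 6, 7, 8, 17 and 19 were also low for the brightest probe in forestomach, with mice 2 and 20, from -1.17 to -0.89. Hspe1 values above are therefore tied to the probe, and no cause of the split was tested.

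**Figure D4:**
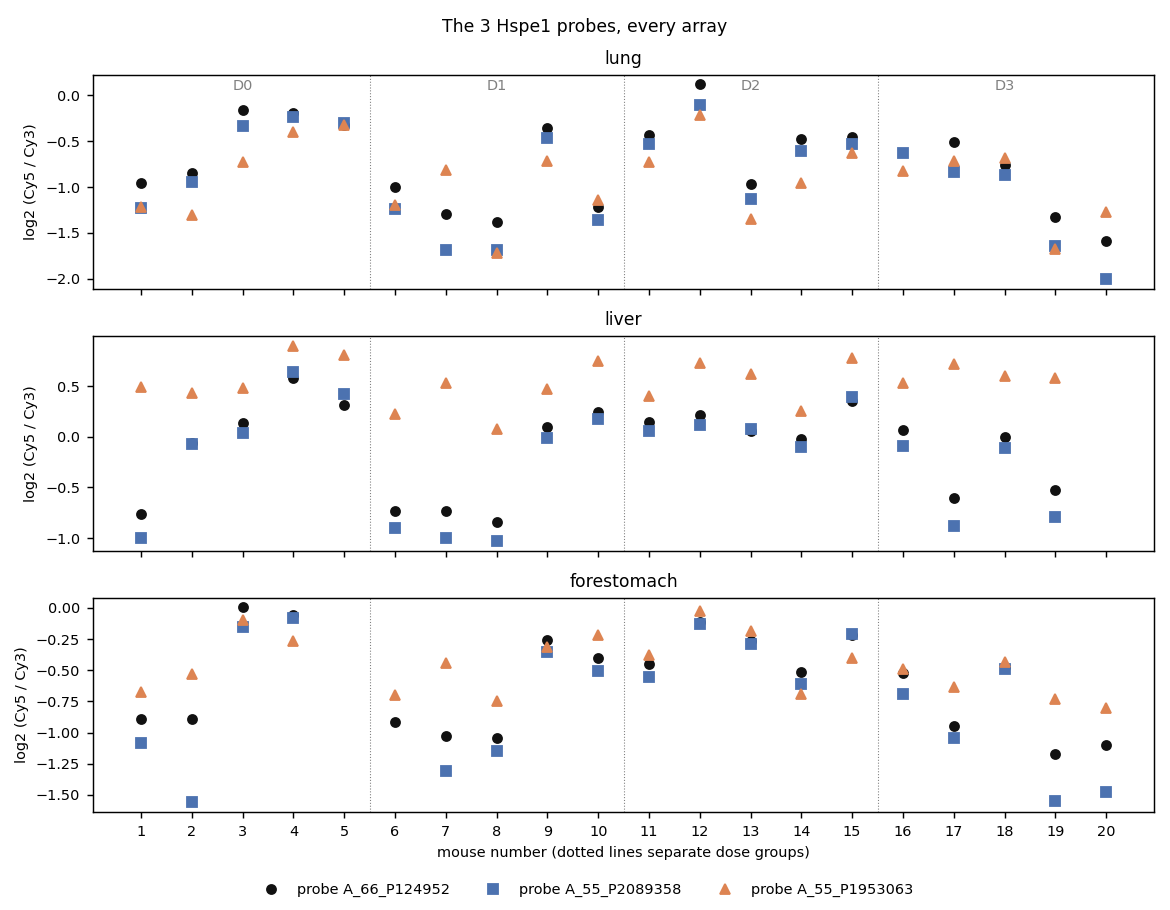
Log2(Cy5/Cy3) of the 3 Hspe1 probes (y axis) by mouse number (x axis) in the 3 tissues, with dotted lines between dose groups and 1 symbol per probe (circles for the brightest, squares for the second, triangles for the third). In liver, 6 of 19 mice sit at -0.52 or below for the brightest probe, while the third probe stays between 0.07 and 0.90, though its reference signal moved with the slide.

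In lung, most of the genes varied together from mouse to mouse, and fewer did in forestomach. Over the 20 lung arrays the Pearson correlation with Hsp90aa1 was 0.93 for Hspd1, 0.91 for Ahsa1, 0.91 for Stip1, 0.77 for Hsp90ab1 and 0.11 for Hsf1. After the dose group means were taken out, the values were 0.91, 0.94, 0.88, 0.82 and -0.0025. Cacybp and Chordc1, the called pair, correlated with Hsp90aa1 at 0.73 and 0.64, and at 0.71 and 0.50 within dose groups, where they correlated with each other at 0.82. In liver Stip1 (0.94), Ahsa1 (0.87), Cacybp (0.87) and Chordc1 (0.82) followed Hsp90aa1, while Hsf1 (0.32), Hspe1 (0.13) and Hspd1 (0.07) did not. In forestomach Hspd1 (0.88) came closest, then Cacybp (0.78), Chordc1 (0.78) and Ahsa1 (0.74). Stip1 (0.57), Hsf1 (0.44), Hspe1 (0.43), Hsp90ab1 (0.40) and Hspb1 (0.20) followed less. The control forestomach of mouse 3 was high for both Hsp90aa1 and Hspd1. These values are a description, since the arrays share a reference, slides and RNA of whole tissue.

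Among 14505 genes ranked in lung, the other members included, those outside the 10 most like Hsp90aa1 over the 20 arrays were Hsph1 (r = 0.94), Hspa4l (0.88), Gprasp1 (0.85), St13 (0.84), Hspa5 (0.84), Mrps6 (0.84), Cct7 (0.83) and Rell1 (0.82). Of these, Hsph1 and Hspa4l are Hsp110 proteins that recharge Hsp70, St13 is an Hsp70 partner, Hspa5 is the Hsp70 of the endoplasmic reticulum and Cct7 is a subunit of the cytosolic chaperonin. In liver they were Hsph1 (0.96), Dnaja1 (0.88), Dnaja4 (0.83), Mllt1 (0.83), Lamp3 (0.82), Fam98a (0.81), Creld2 (0.79) and Olfr1368 (0.78). In forestomach they were Rbmxl1 (0.85), Adamts9 (0.83), Hsph1 (0.82), Bms1 (0.82), Hspa4l (0.81), Kctd10 (0.81), Tram2 (0.80) and Spon2 (0.79). Hsph1 was the gene named in all 3 tissues.

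**Figure D5:**
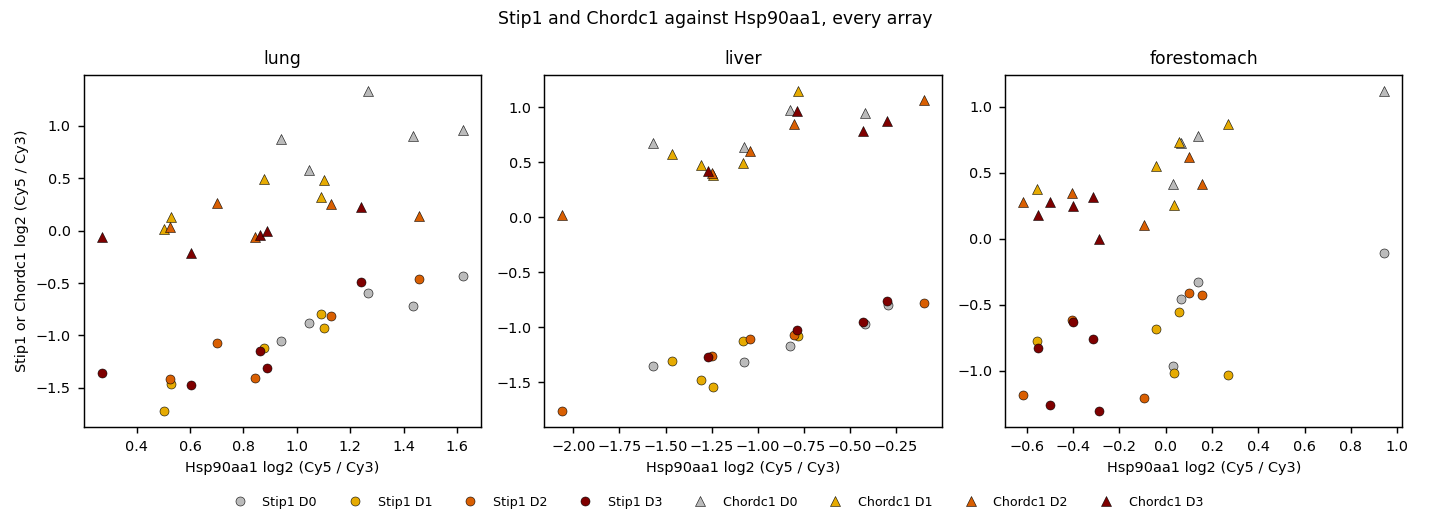
Log2(Cy5/Cy3) of Stip1 (circles) and Chordc1 (triangles, y axis) against Hsp90aa1 (x axis), with 1 point per array, by tissue and coloured by dose group. Stip1 rises with Hsp90aa1 at r = 0.91 in lung (n = 20) and 0.94 in liver (n = 19), and the control lungs lie above the treated lungs for Chordc1.

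The rest of the chaperone network was followed in 8 lists chosen by function, with earlier results of these arrays known. The lists were thus not chosen by values independent of the log2 ratios tested here. The calls, counts and p-values of list genes, here and below, are therefore a description and not independent tests. All calls but 1 came from the cytosolic Hsp70, Hsp110 and J-domain list, of which 15 genes were tested in each tissue, and all were lower in treated mice. In lung, 0, 4 and 6 of the 15 were called at the 3 doses, beside 0, 0.556 and 1.88% of all probes. The list medians were -0.30, -0.23 and -0.32, beside a median of all probes near 0. With median centring the list medians were -0.09, 0.38 and -0.00090, and the medians of all probes were 0.18, 0.38 and 0.15. Hspa1a, the stress-inducible Hsp70, changed most, by -2.95 ± 0.31 at D3 (limma adjusted p = 2.65e-05), and its probe may share signal with the near-identical Hspa1b. The J-domain proteins Dnaja1 (-1.74 ± 0.16, adjusted p = 4.76e-06) and Dnajb1 (-0.86 ± 0.13, adjusted p = 0.000669), the constitutive Hspa8 (-1.03 ± 0.10, adjusted p = 4.76e-06), Hsph1 (-1.41 ± 0.32, adjusted p = 0.00942) and the co-chaperone Bag3 (-0.63 ± 0.09, adjusted p = 0.000243) were the others at D3. With median centring none of the 15, as no other probe, was called in lung. The 6 genes kept their direction, with changes at D3 from -2.45 (Hspa1a) to -0.31 (Bag3). With loess, 13, 12 and 13 of the 15 were below D0 at the 3 doses, beside 49.7, 49.4 and 49.4% of all probes. With median centring, 8, 5 and 8 were. Without the lungs of mice 5, 14 and 16, 0, 5 and 6 were called, and the share of all probes was not counted there. The calls of Hspa8 in lung were lost in the Cy5 channel alone and that of Bag3 without mouse 1.

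At D2 the 4 called in lung were Hspa1a (-2.63), Dnaja1 (-1.49), Dnajb1 (-0.89) and Hspa8 (-0.87). In liver, 1 of the 15 was called at D2 and at D3, beside 0.588 and 0.434% of all probes. It was Dnajb1 (-0.73, limma adjusted p = 0.00427, and -1.004, adjusted p = 0.00152). In forestomach 1 was called at D3, Hspa8 (-0.88 ± 0.14, limma adjusted p = 0.041), beside 0.0248% of all probes. The Hspa8 call in forestomach was kept in 12 of 30 alternative settings and was lost, among others, without any one of 13 mice, with median centring, with Agilent's processed signals and in the Cy5 channel alone. The call of Dnajb1 in liver at D2 was lost in the Cy5 channel alone. No gene of the other 7 lists was called in these 2 tissues. An element of 3 heat shock units was found in windows of 2 of the 14 genes of this list with a window, Hsph1 and Dnajb6, and in none of the other 7 lists. The windows of Hspa1a and Dnaja1 held at most a pair of units, and those of Dnajb1 held no pair.

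The other lists held smaller changes. Of 16 tested genes of endoplasmic reticulum folding and the unfolded protein response, 1 was called in lung at D3, beside 1.88% of all probes. It was Manf (-0.62 ± 0.15, limma adjusted p = 0.0142), a secreted stress-response protein, and the list median was -0.20. This call was lost without mouse 3 or 19 and with median centring. None of the 14 subunits of the cytosolic chaperonin TRiC and of prefoldin reached the fold threshold in any tissue. In lung at D3, 13 of these 14 were negative, beside 49.4% of all probes, and the median was -0.13. With median centring 4 of 14 were negative, but the median of all probes itself then stood at 0.15. With loess, 6 had an unadjusted limma p under 0.05, beside 23.9% of probes. After adjustment, 4 had a limma p of at most 0.05 at any fold (beside 9.13% of all probes). These were Pfdn1 (-0.45, adjusted p = 0.0078), Cct8 (-0.41, adjusted p = 0.00197), Cct6a (-0.35, adjusted p = 0.0048) and Cct5 (-0.30, adjusted p = 0.0065).

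None of 20 further Hsp90 co-chaperones was called in lung, and their median at D3 was 0.06 (8 had an unadjusted limma p under 0.05, beside 23.9% of probes). At any fold, 3 had a limma adjusted p of at most 0.05, beside 9.13% of all probes. Ptges3 (p23) was lower at -0.51 (adjusted p = 0.00919), and Ttc4 (0.32, adjusted p = 0.00558) and Fkbp8 (0.25, adjusted p = 0.0342) were higher. None of 9 mitochondrial folding genes, 6 small heat shock proteins, 3 heat shock factors and regulators and 2 Hsp90 paralogues (Hsp90b1 and Trap1) tested in lung was called at D3. An unadjusted limma p under 0.05 was held by 2, 1, 1 and 1, beside 23.9% of probes. The medians were 0.01, -0.04, 0.08 and 0.17. At any fold, 4 of the genes in these lists had a limma p of at most 0.05 after adjustment, beside 9.13% of all probes. The small heat shock protein Hspb8 (-0.40, adjusted p = 0.0212) and the mitochondrial J-domain protein Dnaja3 (-0.26, adjusted p = 0.0115) were lower, and Hsf4 (0.42, adjusted p = 0.00337), a heat shock factor of the lens, and the mitochondrial protease Htra2 (0.44, adjusted p = 0.00123) were higher.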

How the data were processed

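RNA of lung, liver and forestomach (20 mice, 58 arrays) was hybridised against reference RNA on two-colour Agilent arrays without dye swap. The deposited scanner files hold signal intensity per spot as the authors' Feature Extraction software (version 10.7.3.1, per the labels) wrote it. The authors' table of normalised values holds log2 ratios, made by LOWESS of median signals per the study's methods. It correlated with the ratios computed here at 0.995 to 0.998 per array.

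Here, log2(Cy5/Cy3) of median signals was normalised by within-array loess without background correction (R 4.3.3, limma 3.58.1). Control spots were left out, as were spots marked as outliers (0.495% of gene spots), and spots of a probe were averaged. Probes that rose well above background in the Cy5 channel of 4 or more arrays of a tissue were tested with lmFit and eBayes, over all dose groups of a tissue or, between tissues, over all arrays. A call needed an adjusted p (Benjamini-Hochberg over all probes tested) of at most 0.05 and 1.5-fold, and for slopes the adjusted p alone. The study's MAANOVA test was not run, and limma stood in for it. The number of arrays limits the precision. Within a tissue each array is 1 mouse, the mice of a group were numbered in the labels, and the scripts were tested on simulated data.

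Probe accessions were matched to RefSeq symbols (26413 of 55681 gene probes). The 10 genes were chosen by name and the gene lists by function, both with earlier results of these data known. The p-values printed for list genes are therefore descriptive. The text names all 10 genes by their brightest probe, each list gene called in a dose contrast (at most 6 per list and tissue) and the 8 genes most like Hsp90aa1. List genes named at any fold or below the fold threshold were chosen after their values were seen.

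Alternatives were normexp with offset 50 (on median signals, since mean signals were not used), median centring, Agilent's processed signals, the authors' table, Cy5 alone with quantile normalisation, other probe filters, outlier spots kept, slide as a block, no fold threshold, 2 groups per fit, any probe of a gene, mouse as a replicate block, and each mouse left out. Leaving out the lungs of mice 5, 14 and 16 and the glandular stomach covariate were chosen after seeing the data. Mice were paired between tissues by the animal numbers of the labels. The deviations of the same mouse from its group mean correlated at -0.03 to 0.19 between lung and liver, -0.11 to 0.23 between lung and forestomach and -0.07 to 0.11 between liver and forestomach.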

Additional observations from a re-analysis of the deposited data

Results flagged for a closer look

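Of 120 groups of 4 or 5 arrays checked, 5 held 1 array far from the others, where chance alone marks about 1 in 20 groups. Forestomach of mouse 3 (D0) was high for Hsp90aa1 at 0.94, with the next control at 0.14, and for Hspd1 at 0.40, with the next at -0.24. Forestomach of mouse 8 (D1) was low for Hsp90ab1 at -0.27, with the next at 0.08. Forestomach of mouse 14 (D2) was low for Hspb1 at 3.25, with the next at 3.42. Liver of mouse 7 (D1) was high for Chordc1 at 1.15, with the next at 0.58.

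The D3 effect in lung minus that in liver was -1.05 for Cacybp and -0.90 for Chordc1, which a limma interaction term called as different between the tissues. The lung values had a part in the choice of these genes, so the difference is not independent of that choice.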

How the results depend on the processing

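With median centring, which called 0 of all probes in lung at D1, D2 and D3, members called numbered 0 in lung at D2 and at D3, 0 for the lung slope, 0 for the D3 effect in lung against liver and 3 for vehicle lung against liver. With the Cy5 channel alone, 3 were called between liver and forestomach of vehicle-treated mice. The cause was not tested. Over the fits that left out 1 mouse, the counts ran from 0 to 1 in lung at D1 (1 without mouse 5, Chordc1), from 1 to 2 at D2 (1 without mouse 3, 13 or 15), from 2 to 3 at D3 and from 2 to 3 for the lung slope. They ran from 0 to 2 for the D3 effect in lung against liver, and from 5 to 6 for vehicle levels in lung against liver and in liver against forestomach. In these fits all counts in liver and forestomach stayed at 0. With mouse as a paired replicate block (consensus correlation 0.0418), the counts between tissues were 2, 0 and 0 for the D3 effect and 5, 2 and 6 for vehicle levels, and no count changed.

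Over 30 planned settings, the lung call was kept in 26 for Cacybp and 29 for Chordc1 at D2, in 29 for each at D3 and in 22 for Hspd1 at D3. Among 2700 recomputed changes of single members, a turn of sign was counted only where the main fit had called the change, and there were none. Most of the 2700 were of changes not called, and such changes did turn. Over the planned settings, Hspd1 in liver at D1 turned in 9 of 29 and Hsf1 in lung at D2 in 5 of 30. Normexp used median signals. The number of arrays and the wide spread of Hsp90aa1 and Hspb1 in liver limit the precision there.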
